A study of Mus musculus with 16 samples.

Results

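Hypertensive aortic valves were set against control valves: 8 of the 15 mouse libraries used from the series, 4 in each group. The hypertensive mice (HT, 2 female and 2 male libraries) overexpress human renin and human angiotensinogen from transgenes. The control mice (CON, 1 female and 3 male libraries) carry neither transgene. All are on the C57BL/6J background. The other 7 libraries came from ApoE knockout mice, 3 with the same transgenes (HC/HT) and 4 without (HC), and served here to estimate the spread and as a second setting of the transgenes. The labels used here give no age, no blood pressure and no promoter for the transgenes. Their titles name mice in the plural and number the replicates, but give no count of mice per library. In each test a p-value sets a difference against the spread between libraries, which limma estimates from all 15 together.

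Renin cuts angiotensinogen to angiotensin I, and angiotensin-converting enzyme turns that into angiotensin II, the hormone that narrows vessels and raises blood pressure through the type 1 receptor. Human renin acts poorly on mouse angiotensinogen, so such models carry both human genes. An aortic valve leaflet is a sheet of endothelium over interstitial fibroblasts that lay down collagen, proteoglycan and elastic fibres, with resident macrophages and melanocytes between them. Angiotensin II is known to act on endothelium, fibroblasts and macrophages, and pressure load on endothelium and fibroblasts.

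The gene with the smallest p was Aldh3a1, an aldehyde dehydrogenase best known from the cornea, which averaged 3.08 ± 1.38 units in HT and 15.4 ± 2.73 in CON (SD, n = 4 each). The genes of cholesterol synthesis mostly lay higher in HT, while those of ribosomal proteins and macrophages mostly lay lower. None of the 16177 genes tested passed an adjusted p of 0.05 by limma, which is 0.0% in either direction, and the smallest adjusted p was 0.663. Differences below are therefore measured values with their errors, none of which exceeded the spread between libraries once all genes were counted. A unit is 1 part in 1000000 of a library's total after its dominant rows were taken out. Log2 differences are HT minus CON on log2(units + 1), with sex as a term.

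The levels of the genes hang on how each library is scaled. The 4 most abundant rows, RN45S (a ribosomal RNA precursor) and 3 rows named only by accession, took 43.5%, 62.2%, 62.7% and 49.0% of the deposited total in HT replicates 1 to 4, against 37.0%, 32.4%, 39.3% and 57.8% in CON. The mean difference of 12.8 percentage points was within the spread between libraries (exact permutation test, two-sided p = 0.143, where 4 against 4 can reach 0.0286). On the deposited scale the median gene therefore lay 0.42 lower in HT on the log2 scale, and after rescaling it lay 0.09 lower. The median standard error of a gene was 0.37.

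The 3 mitochondrial rows, also taken out, made up 2.14%, 5.32%, 2.16% and 1.94% of the rest of the total in HT, against 1.49%, 1.25%, 1.37% and 1.91% in CON. All HT libraries lay above all CON libraries (exact permutation test, two-sided p = 0.0286, the smallest possible), but HT replicate 4 and CON replicate 4 were separated only narrowly. Without HT replicate 2 the HT mean was 2.08%, against 1.51% in CON (exact p = 0.0571). This ratio was picked after its values were seen, and of the full total the same rows took 1.25 ± 0.530% in HT and 0.856 ± 0.0591% in CON, with groups that overlapped (exact p = 0.143). Of the nuclear genes of the respiratory chain 11 of 27 were positive, where 41.2% of all genes were, with a median difference of -0.12. HT replicate 2 was the highest HT library for 27 of the 27. The median was -0.45 without that library, -0.70 without it and CON replicate 4, and -0.77 in males alone, which in HT are replicates 3 and 4. It was 0.07 without HT replicate 3 and 0.21 without HT replicate 4.

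**Figure D1:**
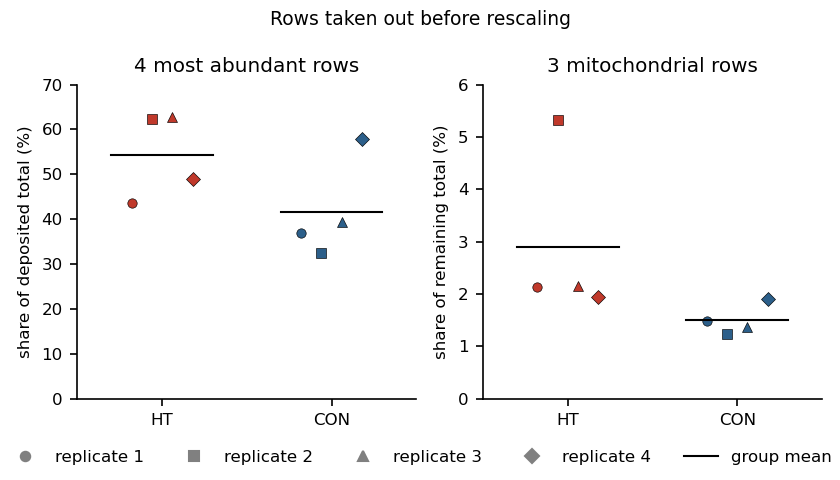
Share of the 4 most abundant rows in the deposited total (left, %) and of the 3 mitochondrial rows in the rest (right, %), 1 point per library for HT and CON, line at the mean. HT replicates 2 and 3 (62.2% and 62.7%) and CON replicate 4 (57.8%) had the largest dominant shares, and HT replicate 2 (5.32%) the largest mitochondrial share.

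All 22 interstitial and fibroblast genes and all 24 endothelial genes of the marker lists were above 0 in each of the 8 libraries. Some libraries also carried neighbouring tissue or blood. The 28 cardiomyocyte genes summed to 3356, 39645, 2428 and 1266 units in HT, against 7698, 1344, 3531 and 2456 in CON, so HT replicate 2 stood far above the rest. The 8 erythroid genes summed to 223, 1110, 271 and 14.5 units in HT, against 1117, 387, 295 and 13706 in CON. Ms4a1, which encodes the B cell antigen CD20, was listed at 0 in 7 libraries and at 81.6 units in CON replicate 4. That library was also the highest of the 8 for the summed platelet, T and NK cell, and neutrophil and mast cell lists. Fewer cells of a type and less RNA per cell cannot be told apart in whole valves.

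Across all tested genes the balance leaned towards lower values in HT. A positive difference was found for 6673 genes (41.2%) and a negative one for 9504 (58.8%). At an unadjusted p under 0.05 there were 887 genes (5.48%), close to the 809 that a test of this many genes gives by chance, with 254 higher (1.57%) and 633 lower (3.91%). HT lay wholly above CON for 129 genes (0.797%) and wholly below for 360 (2.23%), 489 in all (3.02%). Without HT replicate 3 the 887 genes became 407, so this library carried much of the contrast. The lean to lower values also depended on scaling: 28 higher and 1894 lower on the deposited scale, but 427 higher and 402 lower with median-of-ratios factors. Those factors set the median gene near 0 by design (-0.0065), so they tend to an even split.

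The 15 genes with the smallest p on the lower side had differences between -2.13 and -0.70, and 11 of the 15 had groups that did not overlap. HT replicate 3 was the lowest HT library for 12 of them. HT lay wholly below CON for 2.23% of all genes. Since the 15 were picked by p, the counts describe them and test nothing.

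Aldh3a1 (GRCm38 chromosome 11, 61208510 to 61218418) was at 2.83, 4.93, 1.61 and 2.94 units in HT, against 18.5, 13.3, 12.9 and 17.0 in CON. Its highest HT library lay well under its lowest CON library, in both sexes. The log2 difference was -2.10 (SE 0.40, adjusted p = 0.663), negative in 26 of 26 alternatives, between -2.40 and -1.49. With the transgenes on the ApoE knockout background the difference was -0.38 (unadjusted p = 0.38), and the test of the difference between these contrasts gave an unadjusted p of 0.0082 (adjusted p = 0.999).

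Of 19 aldehyde dehydrogenase and retinoid genes tested, 16 were negative and 3 positive, 5 were lower at an unadjusted p under 0.05 and 3 had HT wholly below CON, where 58.8%, 3.91% and 2.23% of all genes did. The list, which includes Aldh3a1, had a median of -0.51 where the all-gene median was -0.09. Its median was between -0.48 and -0.44 without HT replicate 1, 2 or 3 or CON replicate 4, and -0.31 with the dominant-row share as a term. Stra6, the receptor through which cells take up retinol from its binding protein, was at 12.9, 9.87, 5.10 and 12.3 units in HT, against 24.9, 42.0, 13.4 and 30.5 in CON. All HT values lay under the CON values, by -1.45 (SE 0.35, adjusted p = 0.891), with HT replicate 1 and CON replicate 3 nearly touching. Aldh1a1, which makes retinoic acid from retinaldehyde, was at 454, 236, 250 and 231 units in HT, against 510, 519, 420 and 346 in CON, a difference of -0.66 (SE 0.27). Aldh9a1, which acts on amino aldehydes, was also lower in every HT library than in any CON library, though HT replicate 1 nearly met CON replicate 3 (-1.06), while Aldh7a1, an enzyme of lysine breakdown, overlapped (-0.83).

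Endothelial genes stood on both sides. Gpr182, an endothelial receptor that takes up chemokines, was at 28.9, 43.0, 13.4 and 19.0 units in HT, against 51.8, 59.7, 46.3 and 52.0 in CON, without overlap (-1.25, SE 0.28). Clec14a, an endothelial C-type lectin, was at 40.6, 37.8, 18.0 and 24.7 units in HT, against 35.7, 67.6, 68.5 and 94.8 in CON, where CON replicate 1 fell among the HT values (-1.27, SE 0.30). Sdpr, now named Cavin2, codes for a coat protein of caveolae and was at 149, 220, 95.3 and 134 units in HT, against 234, 275, 252 and 318 in CON, again without overlap (-0.92, SE 0.24). The list of 24 endothelial genes, which includes Clec14a, had 14 negative and a median of -0.07, where 58.8% of all genes were negative. At an unadjusted p under 0.05 by limma 4 were lower and 1 higher, where 3.91% and 1.57% of all genes were. The list's mean log2 level was 6.20 ± 0.07 in HT and 6.25 ± 0.11 in CON. Pecam1, the adhesion molecule CD31, was at 892, 535, 1473 and 612 units in HT, against 555, 686, 560 and 560 in CON. Sox17, an arterial endothelial transcription factor, was at 15.6, 6.03, 38.7 and 7.05 units in HT, against 7.42, 4.11, 5.56 and 1.42 in CON (1.65). Vwf, von Willebrand factor, differed by -0.61.

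Of the other named genes with lower values in HT, Add3, gamma-adducin of the membrane skeleton, was at 223, 226, 118 and 169 units in HT, against 271, 368, 257 and 333 in CON (-0.87, SE 0.20). Zfp36l1, which speeds the decay of AU-rich mRNAs, was at 187, 179, 74.7 and 124 units in HT, against 311, 244, 208 and 298 in CON (-1.04, SE 0.25). Both had groups that did not overlap, with HT replicate 3 lowest. The same held for Smtnl2, a smoothelin-like protein (-1.29), Megf10, an engulfment receptor (-1.30), and Ssb, the La RNA-binding protein (-0.70). Slc19a3, a thiamine transporter (-1.57), and Stk17b, a kinase (-0.80), did not overlap either, with HT replicates 4 and 2 lowest. Necab1, a calcium-binding protein (-2.13), Gria4, a glutamate receptor subunit (-2.12), and Klhl13, an adaptor of a ubiquitin ligase (-0.99), overlapped. Adjusted p was 0.891 for all of these.

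**Figure D2:**
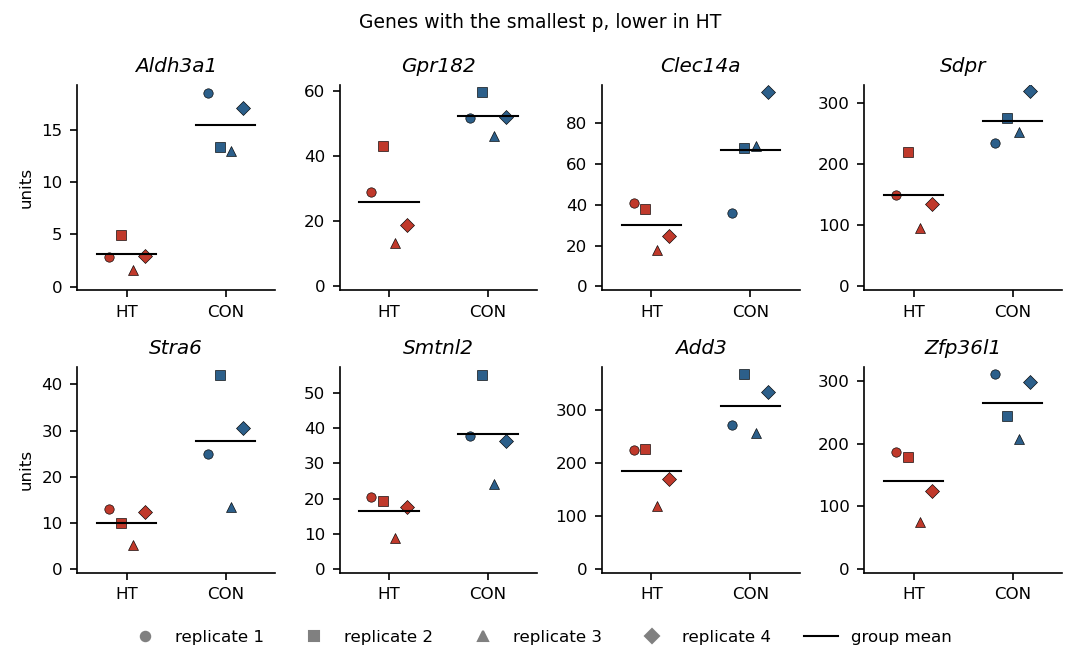
Units (linear axis) of 8 of the 15 genes with the smallest p on the lower side, 1 point per library, HT left of CON, line at the group mean. In 7 of the 8 panels all HT points lie under all CON points; Clec14a overlaps through CON replicate 1 at 35.7 units.

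On the higher side the 15 genes with the smallest p had differences between 0.69 and 2.40, and 9 of the 15 had groups that did not overlap. HT lay wholly above CON for 0.797% of all genes. Since the 15 were picked by p, this count also tests nothing. Slco5a1 (GRCm38 chromosome 1, 12866549 to 12992796), of the organic anion transporter family, was at 12.9, 15.6, 17.4 and 19.4 units in HT, against 11.7, 3.23, 4.09 and 2.37 in CON (1.72, SE 0.42, adjusted p = 0.891). The HT values were close together and CON replicate 1 came near the lowest of them. Ano3 (GRCm38 chromosome 2, 110655201 to 110950391), an anoctamin membrane protein, was at 17.2, 12.1, 12.3 and 16.1 units in HT, against 7.10, 4.99, 5.56 and 2.84 in CON (1.44, SE 0.42). Both genes also lay higher with the transgenes on the ApoE knockout background, by 1.57 for Slco5a1 (unadjusted p = 0.0022) and 2.37 for Ano3 (unadjusted p = 4.5e-05), and neither passed adjustment there.

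Ccl17 and Ccl22 are chemokines that both bind the receptor Ccr4 and are made by dendritic cells and macrophages. Ccl17 was at 59.9, 6.03, 6.18 and 5.68 units in HT, against 1.42, 1.76, 2.13 and 0 in CON (2.33, SE 0.68). Ccl22 was at 34.5, 6.58, 1.61 and 9.99 units in HT, against 1.74, 1.47, 0 and 0 in CON (2.40, SE 0.69). HT replicate 1 held by far the most of both, and the CON values were near the bottom of the scale. HT lay above CON in every library for Ccl17, while for Ccl22 the values of HT replicate 3 and CON replicate 1 crossed. HT replicate 1 was also the highest HT library for the macrophage list, at a mean log2 level of 6.16, and for the interferon-stimulated list, at 6.56. The part of these cells in the chemokine values was not tested.

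Acan and Spp1 are genes of cartilage and mineralising tissue. Acan, aggrecan, was at 13.6, 9.04, 8.32 and 7.05 units in HT, against 1.10, 3.23, 2.62 and 1.89 in CON, with HT wholly above (1.73, SE 0.53, adjusted p = 0.891). Spp1, osteopontin, was at 114, 54.8, 142 and 18.0 units in HT, against 7.89, 35.5, 2.94 and 4.97 in CON (2.61, SE 0.92, adjusted p = 0.891), where HT replicate 4 and CON replicate 2 crossed. Col2a1, the collagen of cartilage, was at 7.26, 3.84, 13.4 and 0.588 units in HT, against 0.631, 0.293, 0 and 1.42 in CON (1.95, SE 0.63). Against these, Bglap, osteocalcin, was negative (-1.31), as was Cytl1, a secreted factor of cartilage (-0.82). In all, 13 of 19 osteogenic and chondrogenic genes were positive and 6 negative, and 3 were higher and 2 lower at an unadjusted p under 0.05 by limma. Of all genes, 41.2% were positive, and 1.57% were higher and 3.91% lower at that p. The list's median was 0.21, which became -0.14 on the deposited scale. On the ApoE knockout background 8 of the 19 were positive in HC/HT against HC, where 52.9% of all genes were, with a median of -0.47. Acan differed by -1.37 there, and the test of the difference between these contrasts gave an unadjusted p of 0.0008 (adjusted p = 0.999).

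Of the other named genes with higher values in HT, Atp6v0a4, a subunit of the vacuolar proton pump, was at 7.26, 6.03, 12.9 and 6.27 units in HT, against 1.10, 2.64, 1.80 and 2.37 in CON (1.75, SE 0.49). Tbc1d1, a Rab GTPase-activating protein of glucose transporter traffic, was at 46.8, 47.7, 72.8 and 30.0 units in HT, against 24.9, 21.3, 18.5 and 19.4 in CON (1.13, SE 0.32). Both were wholly higher in HT. Aplnr, the receptor of apelin, a peptide that opposes angiotensin II in vessels, was wholly higher too but low, between 2.15 and 7.12 units in HT and between 0 and 1.42 in CON (1.65, SE 0.49). Erich5 (1.33) and Maneal, an endomannosidase-like gene (1.47), did not overlap either, at HT means of 1.89 and 2.19 units. Trpm6, a magnesium channel (1.66), Plet1 (1.95), Ptchd1, a patched-domain protein, Syt17, a synaptotagmin (1.49), and Ralgapa2, of a Ral GTPase-activating complex (0.69), overlapped.

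**Figure D3:**
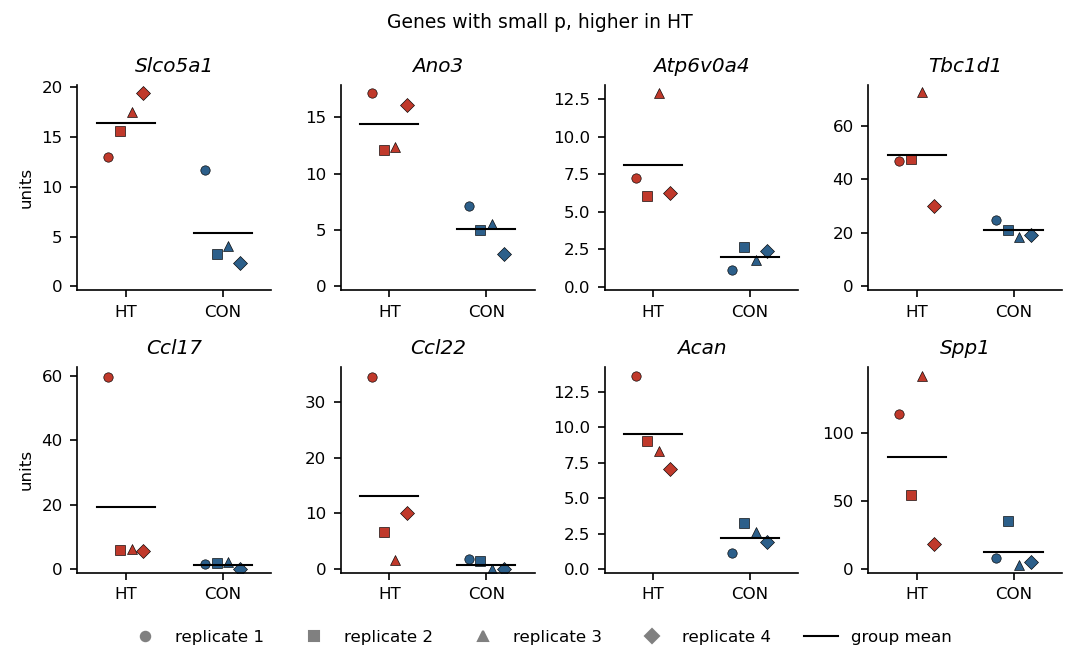
Units (linear axis) of 7 of the 15 genes with the smallest p on the higher side and of Spp1, 1 point per library, HT left of CON, line at the group mean. Slco5a1, Ano3, Atp6v0a4, Tbc1d1, Ccl17 and Acan show all HT points above all CON points, and the Ccl17 and Ccl22 means are pulled up by HT replicate 1.

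Of the mouse renin-angiotensin genes, Agt (angiotensinogen) was below the level tested, at 5.48 units in HT replicate 2 and under 1 in the other 7 libraries. Ace, the converting enzyme, was at 536, 239, 302 and 217 units in HT, against 297, 304, 252 and 138 in CON (0.31, SE 0.28, adjusted p = 0.942). It overlapped and became -0.07 on the deposited scale. Agtr1a, the type 1 receptor, was low in both groups, at 1.17 ± 1.62 units in HT and 3.10 ± 3.63 in CON. Of 16 genes of the system tested, 13 were negative and 3 positive, with a median of -0.30, where 58.8% of all genes were negative. Mme, neprilysin, which breaks down angiotensin and natriuretic peptides, was at 12.6, 27.9, 0.537 and 9.40 units in HT, against 13.6, 19.2, 36.6 and 31.2 in CON (-1.65, SE 0.68, unadjusted p = 0.028). Rnpep, aminopeptidase B, was also lower at an unadjusted p under 0.05 (-0.63). Transcripts of the transgenes themselves were not analysed here.

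Genes known to respond to angiotensin II or to pressure leaned higher. Of 23 tested, 16 were positive and 7 negative, 5 were higher and 0 lower at an unadjusted p under 0.05 by limma, and 0 passed adjustment. Of all genes, 41.2% were positive and 1.57% higher at that p. The median of 0.40 was 0.24 without HT replicate 1, 0.24 without CON replicate 4, and 0.02 on the deposited scale, where the all-gene median was -0.42. On the ApoE knockout background 12 of the 23 were positive in HC/HT against HC, where 52.9% of all genes were, with a median of 0.05. Pdgfb, a growth factor for smooth muscle and pericytes, was at 44.3, 10.4, 130 and 14.3 units in HT, against 10.7, 7.92, 10.3 and 7.33 in CON (1.88, SE 0.60). Ptgs2, cyclooxygenase 2, was at 192, 40.0, 236 and 55.4 units in HT, against 28.2, 35.8, 14.4 and 45.6 in CON (1.81, SE 0.63). For both, HT replicates 1 and 3 were several times the CON level while HT replicates 2 and 4 lay in or near the CON range. Ccl2, a monocyte chemokine, was likewise highest in HT replicates 1 and 3, at 84.5, 13.4, 75.7 and 14.3 units in HT, against 21.8, 8.21, 11.8 and 8.28 in CON (1.51, SE 0.69). Edn1, endothelin 1, was at 41.1, 9.59, 218 and 9.60 units in HT, against 16.1, 7.33, 15.2 and 13.0 in CON, high in HT replicates 1 and 3 (1.55, SE 0.83, unadjusted p = 0.085). Tnc, tenascin C, a matrix protein of loaded tissue, was at 47.5, 17.3, 18.0 and 19.98 units in HT, against 6.16, 21.0, 12.9 and 8.28 in CON (0.94, SE 0.35). On the ApoE knockout background Tnc differed by -1.23, with an unadjusted p of 0.00049 for the difference between these contrasts (adjusted p = 0.999).

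Nppa, atrial natriuretic peptide, was at 104, 5465, 122 and 6.27 units in HT, against 268, 11.4, 41.5 and 24.4 in CON, a difference of 1.77 (SE 1.95) with HT replicate 2 far above the others. It was 0.16 without HT replicate 2, -0.20 without that library and CON replicate 4, and -1.15 in males alone. Nppb, B-type natriuretic peptide, was at 25.7, 22.2, 25.2 and 0.979 units in HT, against 12.3, 0, 0.327 and 0.946 in CON (2.60, SE 1.13, unadjusted p = 0.039). HT replicates 1, 2 and 3 were all high in Nppb. The cardiomyocyte list's mean log2 level was 5.52, 8.37, 4.62 and 3.28 in HT, against 6.83, 4.02, 5.28 and 4.72 in CON. The part of heart muscle in the Nppb values was not tested. Ednrb, the endothelin B receptor, was negative (-1.77, SE 0.74), with HT replicate 3 at 2.69 units against 55.4 to 108 in the other HT libraries.

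The largest positive median of the 41 lists belonged to cholesterol synthesis and uptake. Of 26 genes tested, 21 were positive and 5 negative, 5 were higher at an unadjusted p under 0.05, where 41.2% and 1.57% of all genes were, and the median was 0.69. It stayed positive on the deposited scale, at 0.31. Cyp51, which removes the first methyl group from lanosterol, was at 65.6, 37.8, 142 and 33.3 units in HT, against 34.9, 25.1, 28.4 and 28.6 in CON (1.13, SE 0.47, adjusted p = 0.895). Sc4mol (now Msmo1), which acts on the next methyl groups, was at 49.8, 26.9, 83.5 and 25.7 units in HT, against 27.1, 13.9, 28.8 and 29.1 in CON (0.93, SE 0.36). Nsdhl, of the same step, was at 25.3, 14.0, 59.3 and 16.1 units in HT, against 11.8, 10.8, 14.4 and 19.4 in CON (0.91, SE 0.41). HT replicate 3 was highest for each of these genes and HT replicate 1 next, while HT replicates 2 and 4 lay in or near the CON range. Without HT replicate 3 the list's median was 0.33. Srebf2, the transcription factor of the pathway, differed by 0.11 (SE 0.31). In the ApoE knockout libraries, which share none with this contrast, HC/HT lay above HC for 23 of the 26 genes, where 52.9% of all genes did, with a median of 1.23. The dominant rows also took more of the total in HC/HT than in HC (50.9% against 41.4%). With their share as a term the HT minus CON median was 0.75, while the HC/HT minus HC median with that term is not reported here.

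The promoter of Hmgcs1, an early enzyme of the pathway, is shown because its window alone among those of this list held the letters searched. They are 1 form of the sterol regulatory element, the site bound by SREBP proteins. Other forms of the site were not searched, and only 18 of the 26 genes had a window. The gene was picked after values were seen. The letters searched were TCACNCCAC on both strands, in RefSeq windows of 300 bases (250 before and 50 after a gene's start, GRCm38.p6). They were found in 1 of the 21 windows of this list, which belong to 18 genes, and in 408 of all 32851 windows (1.24%). The window is chr13:119690101-119690400 on the plus strand, 5′ to 3′, with the match in capitals:
Hmgcs1: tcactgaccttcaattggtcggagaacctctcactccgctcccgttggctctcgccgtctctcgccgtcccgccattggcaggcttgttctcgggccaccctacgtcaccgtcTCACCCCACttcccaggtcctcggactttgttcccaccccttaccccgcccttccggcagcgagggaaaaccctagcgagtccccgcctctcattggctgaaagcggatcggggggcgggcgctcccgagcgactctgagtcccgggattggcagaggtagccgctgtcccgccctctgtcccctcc
Hmgcs1 itself was at 73.3, 44.7, 117 and 31.7 units in HT, against 52.4, 31.5, 35.2 and 18.9 in CON (0.93, SE 0.48, unadjusted p = 0.069), with HT replicate 3 highest and the groups overlapping. The match describes the letters of this window only.

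**Figure D4:**
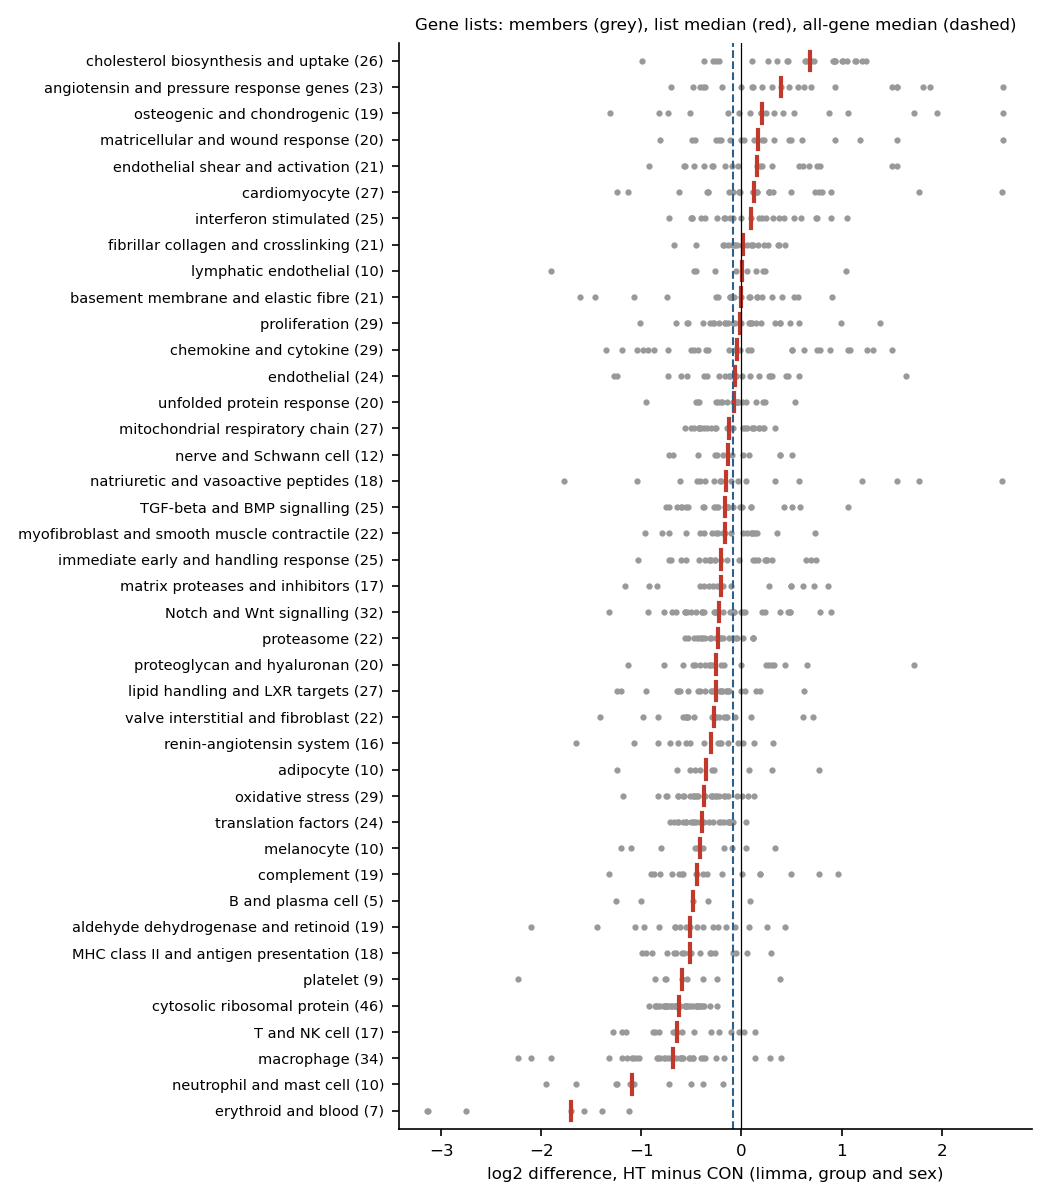
Log2 differences, HT minus CON, of the tested members (grey) of 41 gene lists, with each list's median (red) and the all-gene median of -0.09 (dashed); the number tested is in brackets. Cholesterol synthesis (0.69) lies furthest right and the erythroid list (-1.70; -0.49 without CON replicate 4) furthest left.

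Ribosomal proteins form the subunits that translate mRNA, and their genes are usually expressed in step. All 46 tested were negative in HT, where 58.8% of all genes were. At an unadjusted p under 0.05 by limma 5 were lower, where 3.91% of all genes were. The list's median of -0.63 stayed negative in 26 of 26 alternatives. All 46 were negative on the deposited scale too, but that scale lowers HT throughout: the list's median was -1.01 there and the all-gene median -0.42. Rpl4 was at 566, 657, 310 and 486 units in HT, against 848, 886, 756 and 645 in CON (-0.74, SE 0.21, adjusted p = 0.891), and Rpl10a at 561, 465, 260 and 219 units in HT, against 580, 634, 519 and 476 in CON (-0.77, SE 0.24). In both groups replicates 1 and 2 lay higher than replicates 3 and 4: the list's mean log2 level was 8.60, 8.44, 6.70 and 7.00 in HT, against 8.68, 8.75, 7.72 and 7.47 in CON. Replicates 1 and 2 of each group have lower column numbers in the deposited table than replicates 3 and 4. In HT they are also the females, so that column position and sex cannot be told apart in that group, while in CON only replicate 2 is female. With the column split as a term the median was -0.56, and in males alone it was -1.11. It was -0.31 without HT replicate 3 and -0.12 with the dominant-row share as a term. The translation factors leaned the same way, with 23 of 24 negative, where 58.8% of all genes were, and a median of -0.39. Among them were Eif3h (-0.72), Eef1g (-0.63) and Eif4b (-0.48).

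Macrophage genes were mostly lower. Of 34 tested, 31 were negative and 3 positive, 7 were lower and 0 higher at an unadjusted p under 0.05 by limma, with 0 past adjustment and a median of -0.68. Of all genes, 58.8% were negative and 3.91% lower at that p. F13a1, coagulation factor XIII A of resident macrophages and platelets, was at 42.2, 59.2, 16.9 and 20.4 units in HT, against 101, 67.9, 157 and 267 in CON, without overlap (-2.10, SE 0.58, adjusted p = 0.891). Lyve1, which marks resident macrophages and lymphatic endothelium, was at 20.02, 59.7, 8.86 and 11.9 units in HT, against 47.5, 50.2, 72.9 and 130 in CON (-1.90, SE 0.62). Pf4 was at 40.9, 30.4, 6.18 and 9.60 units in HT, against 37.9, 58.8, 41.0 and 329 in CON (-2.23, SE 0.73), and since it is also a platelet gene its top value lies in the library with most platelet RNA. Csf1r, the receptor that macrophages need to live, was at 174, 102, 44.3 and 99.1 units in HT, against 137, 121, 188 and 192 in CON (-0.84, SE 0.33). The list's mean log2 level was 6.16, 5.29, 3.94 and 4.93 in HT, against 5.84, 5.36, 5.83 and 5.96 in CON. HT replicate 1 thus had the most macrophage RNA of all 8 libraries and HT replicate 3 the least. Without HT replicate 3 the median was -0.22, and without CON replicate 4 it was -0.67. In males alone it was -1.42, but that setting keeps HT replicates 3 and 4 and leaves out HT replicate 1. Sex and the choice of libraries cannot be told apart there. MHC class II and antigen presentation genes had a median of -0.51, which was 0.03 without HT replicate 3.

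CON replicate 4 was the highest library for the T and NK cell, platelet and erythroid lists. The T and NK cell list had 15 of 17 negative, where 58.8% of all genes were, and a median of -0.64. Its mean log2 levels were 1.85, 1.68, 0.70 and 1.47 in HT, against 1.70, 1.39, 1.52 and 3.26 in CON. Its median was -0.28 without CON replicate 4 and -0.33 without HT replicate 3. The platelet list had a median of -0.60, which was 0.80 without CON replicate 4. For the erythroid list of 7 tested genes the median was -1.70, and -0.49 without CON replicate 4. The neutrophil and mast cell list had a median of -1.09, and -0.04 without CON replicate 4 and HT replicate 2. Interferon-stimulated genes had 13 of 25 positive, where 41.2% of all genes were, and a median of 0.09. For this list HT replicate 1 was at a mean log2 level of 6.56 and HT replicate 3 at 3.60, either side of CON (4.31 to 5.14).

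**Figure D5:**
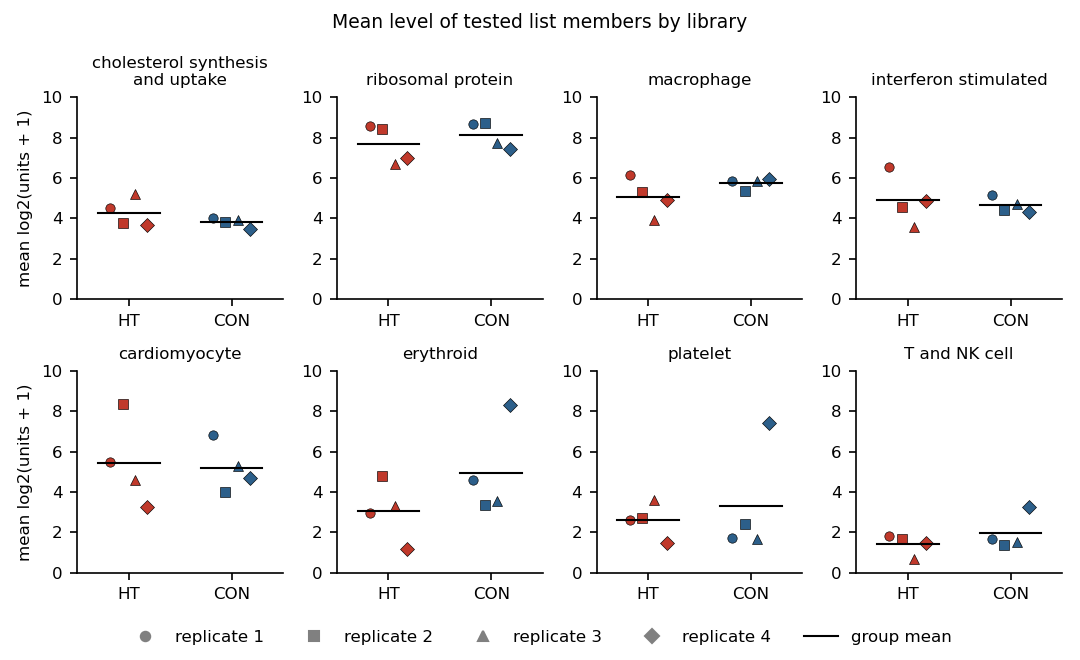
Mean log2(units + 1) of the tested members of 8 lists, 1 point per library, HT left of CON, line at the group mean. HT replicate 3 is highest for cholesterol synthesis (5.19) and lowest for macrophages (3.94), HT replicate 2 is highest for cardiomyocytes (8.37), and CON replicate 4 is highest for the erythroid, platelet and T and NK cell lists.

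The fibrillar collagens, which give the valve its stiffness, had a median difference near 0. Of 21 fibrillar collagen and crosslinking genes, 12 were positive and 9 negative, 0 had an unadjusted p under 0.05 by limma, and the median was 0.01. Of all genes, 41.2% were positive and 5.48% reached that p. Col1a1 averaged 743 ± 185 units in HT and 702 ± 88.2 in CON (0.09, SE 0.25), and became -0.29 on the deposited scale and -0.04 without HT replicate 1. Col3a1 averaged 714 ± 221 units in HT and 781 ± 161 in CON (-0.18, SE 0.43). Postn, periostin, averaged 2128 ± 717 units in HT and 2360 ± 674 in CON (-0.22, SE 0.26). Acta2, smooth muscle actin, ranged from 116 to 1029 units in HT and from 50.6 to 1498 in CON, so its difference of 0.13 (SE 1.11) had no stable sign.

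Genes of the elastic fibre and basement membrane stood on both sides, with 10 of 21 positive, where 41.2% of all genes were. Fbn1, fibrillin 1, was at 887, 506, 870 and 532 units in HT, against 440, 612, 462 and 351 in CON (0.56, SE 0.24). Mfap4, which binds elastin and fibrillin, was at 271, 448, 73.6 and 403 units in HT, against 765, 777, 562 and 638 in CON, without overlap (-1.61, SE 0.45). Mfap2, another microfibril protein, was at 37.4, 20.01, 11.8 and 20.4 units in HT, against 57.5, 50.2, 22.9 and 47.5 in CON (-1.07, SE 0.37). Efemp1, fibulin 3, was negative as well (-1.47), though HT replicate 2 at 223 units exceeded all CON values. Col4a2, a basement membrane collagen, was at 211, 132, 596 and 164 units in HT, against 118, 141, 163 and 133 in CON (0.91, SE 0.35), with HT replicate 3 far above the others. The adjusted p was 0.891 or 0.896 for each.

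Interstitial markers leaned lower: 19 of 22 were negative, 4 at an unadjusted p under 0.05, and 1 was higher, where 58.8% of all genes were negative, 3.91% lower and 1.57% higher. The median of -0.27 was -0.02 with the dominant-row share as a term, -0.50 without HT replicate 1 and -0.44 in males alone. Dpt, dermatopontin, a collagen-binding matrix protein, was at 1390, 979, 268 and 1208 units in HT, against 1903, 2684, 1779 and 1641 in CON, wholly lower (-1.41, SE 0.47). Pi16, a marker of adventitial fibroblasts, was at 111, 97.0, 158 and 96.2 units in HT, against 74.2, 81.5, 69.2 and 52.0 in CON, wholly higher (0.72, SE 0.27). Pdgfrb (-0.53) and Gata4 (-0.54), a platelet-derived growth factor receptor and a transcription factor of valve mesenchyme, lay lower.

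In TGF-beta and BMP signalling, the main fibrotic pathway of the valve, 18 of 25 genes were negative with a median of -0.16. Of all genes, 58.8% were negative. The ligand Tgfb1 averaged 17.4 ± 6.71 units in HT and 23.7 ± 8.63 in CON (-0.38, SE 0.40). Tgfb3 was at 93.0, 68.8, 43.8 and 71.5 units in HT, against 120, 126, 120 and 72.4 in CON (-0.72, SE 0.29), with CON replicate 4 inside the HT range. Of the receptors, Tgfbr3 (-0.60) and Tgfbr2 (-0.55), and of the latent binding proteins Ltbp4 (-0.64), had unadjusted p values between 0.015 and 0.029. In Notch and Wnt signalling 22 of 32 were negative, where 58.8% of all genes were. Ctnnb1, beta-catenin, was at 287, 311, 242 and 268 units in HT, against 469, 402, 494 and 403 in CON, wholly lower (-0.65, SE 0.18, unadjusted p = 0.0018). Sfrp1, a secreted Wnt inhibitor, was at 167, 178, 53.2 and 182 units in HT, against 218, 235, 244 and 281 in CON, also wholly lower (-0.94, SE 0.31). Hey1, a Notch target, overlapped through CON replicates 1 and 4 (-1.32, SE 0.38), and Notch1 differed by -0.18.

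Among enzymes that handle oxidants, 26 of 29 genes were negative, 3 at an unadjusted p under 0.05, where 58.8% and 3.91% of all genes were. The median of -0.37 was -0.22 without HT replicate 3 and -0.76 in males alone. Gstm1, a glutathione transferase, was at 266, 556, 114 and 234 units in HT, against 563, 577, 496 and 534 in CON (-1.18, SE 0.34), with HT replicate 2 at the CON level. Sod1 (-0.63) and Gpx7 (-0.75) also lay lower, with HT replicates 3 and 4 lowest. Apoe, the lipid carrier that is knocked out in the other arm, was at 1102, 890, 155 and 767 units in HT, against 1630, 1518, 1035 and 961 in CON (-1.21, SE 0.53, unadjusted p = 0.040). HT replicate 3 was far below the other libraries. Melanocyte genes had 8 of 10 negative, where 58.8% of all genes were, and a median of -0.41, which was -0.06 without HT replicate 3. Pmel was wholly lower at 12.1, 8.77, 15.0 and 4.70 units in HT, against 34.9, 16.3, 22.6 and 19.4 in CON (-1.11, SE 0.38). On the ApoE knockout background 10 of 10 melanocyte genes were positive in HC/HT against HC, where 52.9% of all genes were.

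The same transgenes on the ApoE knockout background allow a look at direction in a contrast that shares no library with HT against CON, although all 15 libraries were in 1 fit and both contrasts share the sex term. No gene passed there by limma (924 at an unadjusted p under 0.05, 5.71%, smallest adjusted p = 0.331), nor in the test of the difference between the contrasts (389, 2.40%). Of the 15 named lower genes 14 were negative there too, and of the 15 named higher genes 10 were positive. Among all genes the sign was the same for 54.5% of those lower in HT, 63.6% of those higher in HT and 58.3% together. Without the sex term these counts were 14 and 11, against 57.2%. Of the 887 genes at an unadjusted p under 0.05, 76.8% had the same sign. The dominant rows took more of the total in the transgenic group on both backgrounds, and with their share as a term the 15 lower and 15 higher genes had the same sign for 14 and 11, against 61.0% of all genes.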

How the data were processed

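RNA from aortic valves was taken with Trizol and RNeasy, amplified from 1 ng with Nugen Ovation RNA-Seq v2 and made into libraries with KAPA hyper prep, per the labels' protocols. The tools were Bowtie 1.0.1, FastQC 0.11.2, edgeR and SAMtools 0.1.9, with the mm10 build, per the submitters' processing notes. What the authors deposited is a score, counts they normalised and gave as whole numbers for 20992 rows, each library totalling between 10207928 and 10210305. How they were normalised is not stated there, depth is unknown, and 1 unnamed column was not used.

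The 4 most abundant and 3 mitochondrial rows were taken out and each library was scaled to 1000000 units; 1 unit equals 3.65 to 6.82 deposited counts. The mitochondrial rows are those named CYTB, ATPASE6 and COX2, and the last is read as mitochondrial because Ptgs2 has its own row. A gene was tested, if 4 or more of the 15 libraries reached 1 unit, with limma 3.58.1 in R 4.3.3 on log2(units + 1), with group and sex as terms, 15 libraries in 1 fit, eBayes with trend and robust, and Benjamini-Hochberg adjustment over all 16177 genes. The pseudocount of 1 shrinks the differences of low genes. The fit was tested on simulated data. Row names were matched to mouse symbols: 17628 are current, 1131 older and 2210 unmatched.

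Genes named are the 15 per direction with the smallest p among named genes, up to 4 of each list by p, and Agt, Ace, Agtr1a, Col1a1, Col3a1, Tgfb1, Postn, Acta2, Spp1, Nppa, Apoe and Aldh3a1; Aldh1a1, Fbn1, Hmgcs1, Ms4a1, Notch1, Nsdhl, Pecam1 and Srebf2 were chosen after values were seen. The comparison, the lists and the rule were chosen with earlier results of these data known. Values of some list members are not reported here; the counts and medians of the lists include all members tested.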

Additional observations from a re-analysis of the deposited data

Results flagged for a closer look

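In groups of 4, a library was singled out where its gap to the next took more of the group's range than Dixon's critical value for 4 samples. Of 168 groups tested, 16 met this (9.52%). The critical value gives about 1 in 20 for independent, normally spread values. These gene units and list levels come from the same libraries and many are skewed, so that rate is no benchmark here. Genes high in 1 library were Ccl17 in HT replicate 1 (59.9 units), Nppa (5465) and Agtr1a (3.56) in HT replicate 2, Nppa (268) and Maneal (0.316, the others at 0) in CON replicate 1, Plet1 (5.57) and Spp1 (35.5) in CON replicate 2 and Agtr1a in CON replicate 3 (8.50). Among mean log2 levels of lists, HT replicate 1 was high for matrix proteases and inhibitors (6.79), endothelial genes (6.29) and neutrophil and mast cell genes (2.55). HT replicate 3 was low for melanocyte (2.94) and nerve and Schwann cell genes (2.81). CON replicate 1 was high for natriuretic and vasoactive peptides (5.70), and CON replicate 4 for T and NK cell (3.26) and platelet genes (7.42).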

How the results depend on the processing

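Under other scalings, pseudocounts, filters, terms and samples, 0 genes passed HT against CON by limma except among males alone (2 HT, 3 CON). There 3 were lower (Cbr2, F13a1 and Gpx3, smallest adjusted p = 0.0184, with 1598 at an unadjusted p under 0.05). The male HT libraries are replicates 3 and 4, so sex and the choice of libraries cannot be told apart in that setting. Leaving out each library in turn gave 0 to 0 called genes for HT against CON and between 407 and 1148 at an unadjusted p under 0.05. For HC/HT against HC it gave 0 to 4, the 4 without HC/HT replicate 3, and the dominant-row share as a term gave 1 (Ano3). The all-gene median was -0.42 on the deposited scale, -0.0065 with median-of-ratios factors and -0.0016 after quantile normalisation. Median-of-ratios factors and quantile normalisation centre the genes by design, so they tend to an even split of calls. Unadjusted calls split 28 higher to 1894 lower on the deposited scale, 427 to 402 with median-of-ratios factors, 409 to 416 after quantile normalisation and 361 to 460 without the 20 most abundant rows, against 254 to 633; the cause was not tested. They numbered 1405 with array weights, 1349 with HT and CON alone and 370 without HT replicates 2 and 3. The dominant-row difference was between 9.69 and 18.1 points without 1 library.

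Signs turned for Ace on the deposited scale (-0.073); Col1a1 on it (-0.29) and without HT replicate 1 (-0.045, with 0.23 the highest without 1 library); Tgfb1 without HT replicate 2 and CON replicate 4 (0.076); Postn with the dominant-row share as a term (0.21) and without HT replicates 2 and 3 (0.10); Acta2 on the deposited scale (-0.26), in males (-0.61), with HT and CON alone (-0.061), without CON replicate 4 (-0.85), HT replicate 2 (-0.24), HT replicate 4 (-0.13) or the first 2 of these together (-1.30), while without HT replicate 3 it was 1.02; and Nppa in males (-1.15), without HT replicate 2 and CON replicate 4 (-0.20) and without HT replicates 2 and 3 (-0.42). In all, 34 of 40 named genes and 18 of 41 list medians kept their sign throughout. The alternatives that leave out 2 libraries, or add the dominant-row share or the column split as a term, were chosen after seeing the data.

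Replicate numbers gave a replicate block with 0 called and 1080 at an unadjusted p under 0.05 for HT against CON, and 0 and 1335 for HC/HT against HC. Same-numbered HT and CON libraries correlated by 0.05, 0.09, 0.09 and 0.09 in their deviations from the group means. Not every library correlated best with its own number. Whether same-numbered libraries share a batch was not tested.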
